A study of Homo sapiens with 24 samples.

Results

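The cytosolic ribosomal protein genes encode the proteins of the large and small subunits of the ribosome outside the mitochondria. They were taken as all protein-coding rows whose symbol has the form RPL or RPS with a number and, where present, a single letter of A, L, X or Y and a further number after it (as in RPL7L1), together with RPSA, RPLP0, RPLP1 and RPLP2. Genes of chromosome Y and the RPS6K kinases were left out. This gave 84 genes of 60675 rows, of which 52 belong to the large and 32 to the small subunit, on 21 chromosomes. The rule reads names and uses no measured value.

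The cells were MIA PaCa-2, a human pancreatic carcinoma cell line. C/EBPδ-inducible cells carry a Tet-On vector (pCW57) from which doxycycline switches on the CEBPD cDNA, which encodes the transcription factor C/EBPδ, and CTRL cells carry the vector without that cDNA. Both lines were measured at 0, 8, 24 and 48 h of 2 µg/mL doxycycline by sequencing RNA depleted of ribosomal RNA, with 3 libraries in each of the 8 groups. The labels list the same dose at 0 h, whereas the study's methods describe the 0 h cells as untreated, and they are called untreated here. The inducible cells were a pool of 3 clones, both lines express fluorescent proteins as labels, and the replicates were wells seeded in parallel, so that the p-values below measure the spread between wells.

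Each ribosome holds a single copy of nearly all of these proteins, and proliferating cells make them in step with ribosomal RNA. Their mRNAs share a 5′ terminal oligopyrimidine (TOP) tract, a C followed by a run of C and T (U in the RNA) at the very start of the transcript, through which the kinase mTORC1 and the protein LARP1 control their translation and stability. Because they are abundant and steady, several of them serve as reference genes for RT-qPCR. Among these is RPLP0, which the study that made these libraries used together with TBP.

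The start of the transcript is shown for the genes on which the results below turn: RPS12, RPL12 and RPS18, whose change over time differed between the lines, RPL7A, RPL35 and RPS23, which differed between the lines throughout, and RPS27L and RPL7L1, paralogs without a TOP start. Each sequence runs 5′ to 3′ on the gene's strand from 30 bases before the annotated RefSeq start to 20 bases from it (build GRCh38.p14), and capitals mark a run of C or T of at least 5 bases that opens with C within 10 bases of that start. RPS12 lies at chr6:132814539-132814588 (plus strand), RPL12 at chr9:127451387-127451436 (minus), RPS18 at chr6:33272045-33272094 (plus), RPL7A at chr9:133348188-133348237 (plus), RPL35 at chr9:124861938-124861987 (minus), RPS23 at chr5:82278335-82278384 (minus), RPS27L at chr15:63157458-63157507 (minus) and RPL7L1 at chr6:42879586-42879635 (plus).
RPS12: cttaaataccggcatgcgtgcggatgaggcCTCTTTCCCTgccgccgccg
RPL12: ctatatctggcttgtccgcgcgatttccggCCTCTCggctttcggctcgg
RPS18: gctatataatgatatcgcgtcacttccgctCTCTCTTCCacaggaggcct
RPL7A: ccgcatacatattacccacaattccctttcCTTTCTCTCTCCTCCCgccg
RPL35: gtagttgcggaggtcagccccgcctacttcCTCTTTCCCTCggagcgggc
RPS23: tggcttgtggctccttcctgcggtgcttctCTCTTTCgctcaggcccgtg
RPS27L: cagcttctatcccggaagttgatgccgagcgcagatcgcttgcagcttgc
RPL7L1: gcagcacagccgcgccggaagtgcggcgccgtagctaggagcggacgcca

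Promoter windows were matched for 67 of the 84 genes. A TOP start by this definition was present in 58 of the 67 (86.6%), against 38.4% of the 27305 genes with a window. It was absent from RPL10L, RPL17, RPL26L1, RPL27, RPL6, RPL7L1, RPS27L, RPS29 and RPS4X. Within 250 bases before to 50 after the start, on either strand, CCGGAAG, the core of sites for ETS factors, was found in 35.8% of the matched genes and 12.2% of all genes. ATGGCG, the core of YY1 sites, was found in 41.8% and 12.7%. TTGCNNAA, the letters of a C/EBP site, was found in 13.4% and 12.7%, CCAAT in 34.3% and 39.7%, CACGTG in 7.46% and 8.77%, and TATAAA in 10.4% and 14.0%. These motifs can lie on each other's bases, and a match of letters describes the sequence only.

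The libraries held 12731237 to 22598595 counts. CEBPD was at a mean of 3.95 CPM in CTRL and 21.6 CPM in C/EBPδ-inducible cells at 0 h (the counts do not separate the construct from the endogenous gene), and at 249, 307 and 204 CPM in the inducible cells at 8, 24 and 48 h, against 1.90 to 4.02 CPM in CTRL cells. Of the markers of the line, VIM was at 5354 to 7008 CPM, EGFR at 120 to 288 CPM and AXL at 104 to 248 CPM over the 24 libraries, and the keratins KRT8 and KRT18 ranged from 34.5 to 1594 and from 68.7 to 1175 CPM. All 5 of these markers were lower in inducible than in CTRL cells at 24 h by the test described below, by log2 differences of −0.22 to −5.14. Markers of immune cells summed to at most 1.35 CPM and those of endothelial cells to at most 2.72 CPM in any library, with CD3E at 0. Of the fibroblast markers, whose sum was 449 to 690 CPM in CTRL and 136 to 254 CPM in inducible cells, COL1A2 made up nearly the whole sum (135 to 688 CPM), COL1A1, PDGFRA and LUM stayed at or below 1.86, 1.64 and 0.479 CPM and DCN had at most 1 count. What part these marker levels have in the results below was not tested.

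The 84 genes together took 3.35 to 4.04% of a library's counts. In CTRL cells the share was 3.63, 3.75 and 3.66% at 0 h, 3.73, 3.48 and 3.40% at 8 h, 3.66, 3.65 and 3.69% at 24 h and 3.90, 3.73 and 3.82% at 48 h. In C/EBPδ-inducible cells it was 3.70, 3.56 and 3.69% at 0 h, 3.46, 3.35 and 3.42% at 8 h, 4.0, 4.04 and 3.96% at 24 h and 4.04, 3.97 and 4.02% at 48 h. The inducible libraries at 24 h lay above every CTRL library at 24 h and every library of both lines at 0 h, and at 48 h they again lay above the CTRL libraries of that time. The lines overlapped at 0 h and at 8 h. With 3 libraries against 3, an exact permutation test of such a sum cannot give a two-sided p under 0.1. In such bulk RNA, a lower share of cells that express a gene and less of its RNA per cell cannot be told apart.

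**Figure D1:**
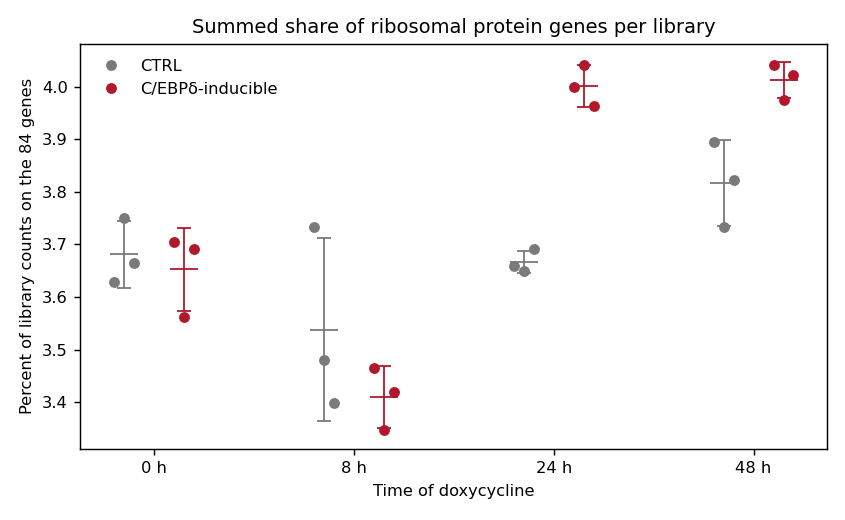
Percent of each library's counts that fell on the 84 genes (vertical axis, not starting at 0) by time of doxycycline, with points for libraries, dashes for means and bars for the SD of 3 libraries. The inducible cells (red) had means of 3.65, 3.41, 4.0 and 4.01% at the 4 times and the CTRL cells (grey) 3.68, 3.54, 3.67 and 3.82%.

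Levels are compared between genes per kilobase of merged exon. RPS12, a protein of the beak of the small subunit, was highest at 1001 CPM per kilobase, followed by RPL8, a protein of the core of the large subunit, at 655 and RPS4X, the X-linked RPS4 gene, at 483. The lowest of the tested genes were RPL17, which lines the tunnel through which the new protein leaves, at 7.5, RPL36A at 5.23 and RPS27L, the paralog of RPS27, at 2.71. The order of the highest depends on the length used: per kilobase of the main transcript, a choice made after seeing the data, the 3 ranked 5, 4 and 14, whereas the lowest 3 ranked 76, 78 and 81 of 81. RPL10L, RPL39L and RPL3L had at most 4, 6 and 4 counts in a library and were not tested, which leaves 81 genes in every comparison. Ribosomal protein genes have many near-identical pseudogenes, and 78 of the 84 have rows for them. The pseudogenes of RPL36A, RPL21 and RPL17 held 81.5, 38.7 and 35.1% of the counts of gene and pseudogenes together, and 15 genes passed 10%, so that the levels of these genes are uncertain. RPL17 also shares exons with the read-through transcript RPL17-C18orf32, 28 of the genes hold snoRNA genes, and exons of 27 overlap a gene on the other strand.

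The change from 0 to 24 h of doxycycline in inducible cells was compared with that in CTRL cells, as an interaction of line and time. In this design, C/EBPδ induction cannot be told apart from other differences between the lines in their course over time. The log2 change was larger in the inducible cells for 78 of the 81 genes, with a median difference of 0.16, where the median of all genes was −0.0009. Of these, 28 passed the test (edgeR quasi-likelihood test, adjusted p under 0.01, called hereafter), all in that direction, against 5.84% of all 16224 genes called in either direction, 2.86% higher and 2.98% lower. Among the 28, 19 were in the large subunit, to which 52 of the 84 genes belong. At an unadjusted p under 0.05, 67 of the genes passed, and the share of all genes at that threshold is not given here. The percentages of all genes called, here and below, belong to the adjusted threshold. They do not apply to fits with other libraries or filters. The effects were small, at most 0.27 on the log2 scale for called genes. The count of called genes was 15 without the second inducible library at 0 h, 16 without the second CTRL library at 24 h, 18 without the second inducible library at 24 h and 7 in a model of all 24 libraries.

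RPL32, a protein of the large subunit, was at 459.5, 475 and 444 CPM at 0 h and 439.7, 427 and 437 CPM at 24 h in CTRL cells, and at 452, 429.7 and 459 CPM at 0 h and 484, 540.0 and 494 CPM at 24 h in inducible cells. The 24 h inducible libraries were above all the others, and the CTRL libraries were lower at 24 h than at 0 h. The difference of the changes was 0.27 ± 0.05 (SE, adjusted p = 0.00052). RPL12, a protein at the base of the stalk that calls in translation factors, went from 470.1, 465 and 484 CPM to 537, 593 and 539.6 CPM in inducible cells and from 612, 622 and 589 CPM to 610.4, 598 and 585 CPM in CTRL cells. Its inducible libraries were below all CTRL libraries at 0 h and 1 of them was within the CTRL range at 24 h, and the difference of the changes was 0.27 ± 0.05 (adjusted p = 0.000203).

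RPS18, a protein of the head of the small subunit, was at 757, 705 and 734 CPM at 0 h and 819, 864 and 807 CPM at 24 h in inducible cells, and at 768, 822 and 787 CPM and 769, 749 and 760.0 CPM in CTRL cells. The inducible libraries of the 2 times did not overlap, the CTRL libraries did, and the difference of the changes was 0.25 ± 0.04 (adjusted p = 0.000218). For RPS12 the inducible libraries rose from 661, 621 and 642 CPM to 719.7, 701 and 691 CPM, whereas the CTRL libraries were at 673, 697 and 696 CPM and then at 657, 653 and 639 CPM. Its groups moved apart in both lines, with a difference of the changes of 0.23 ± 0.04 (adjusted p = 0.000135). The difference was 0.24 ± 0.04 for RPL27, and 0.23 for each of RPL27A and RPS20, the latter a protein of the small subunit's head, with adjusted p of 6.53e-05 for RPL27A and 0.00036 for RPS20.

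**Figure D2:**
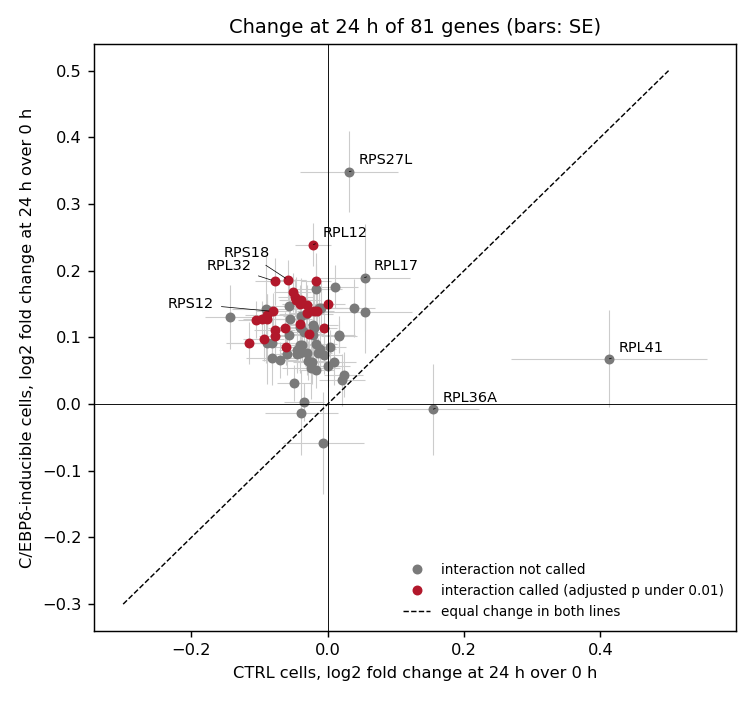
Log2 fold change at 24 h over 0 h in CTRL cells (horizontal axis) and in C/EBPδ-inducible cells (vertical axis) for the 81 tested genes, with bars for the SE and red points for genes called in the interaction. Above the dashed line of equal change lie 78 of the genes, among them all 28 called ones, and RPL41 lies far to the right because its first CTRL library at 0 h held 13.6 CPM against 21.7 and 26.1 CPM in the others.

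Among the proteins of the stalk, the lateral arm of the large subunit that binds translation factors, RPLP0 was called with a difference of the changes of 0.18 ± 0.03 (adjusted p = 0.000317). RPLP1 and RPLP2, which form its tip, had values of 0.14 (adjusted p = 0.0116) and 0.18 (adjusted p = 0.015). RPL5 and RPL11, which with 5S ribosomal RNA form a particle that can bind and block MDM2, were not called (RPL11 0.21, adjusted p = 0.0125). RPL3, a protein near the peptidyl transferase centre, was called at 0.16 ± 0.04 (adjusted p = 0.00395) and RPS4X at 0.17 ± 0.04 (adjusted p = 0.00655), calls that were lost in 10 and 11 of 20 other settings. The largest estimate was that of RPS27L, 0.32 ± 0.09, which missed the threshold (adjusted p = 0.0259), and 3 genes had estimates below 0, RPL41 (−0.34), RPL36A (−0.16) and RPL22L1 (−0.05), none of them called. The median difference was 0.15 for the 58 tested genes with a TOP start and 0.16 for the 8 without, which are too few for more than these values.

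At 8 h no gene was called in the interaction (1.66% of all genes were, 0.887% higher and 0.77% lower), and 7 had an unadjusted p under 0.05. DESeq2 called none either. The median difference was 0.01. At 48 h 73 of the 81 differences were above 0, with a median of 0.10 and 37 genes at an unadjusted p under 0.05, and only RPS12 was called (0.24 ± 0.05, adjusted p = 0.00161; 5.54% of all genes were called, 2.83% higher and 2.72% lower). RPS12 was at 575, 591 and 603 CPM in CTRL and at 659.9, 641 and 667 CPM in inducible cells at 48 h, without overlap. From 0 to 48 h it changed by −0.23 in CTRL cells (called) and by 0.02 in inducible cells (not called). The count at 48 h was 6 without the first and 2 without the third CTRL library of that time. All interactions, and the comparisons with 0 h below, share the 0 h libraries of each line.

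Within the C/EBPδ-inducible cells more of the genes were called lower than higher at 8 h, and more higher than lower at 24 and 48 h. At 8 h, 48 of the 81 were called lower and 1 higher than at 0 h, against 15.8% of all genes lower and 14.6% higher (30.5% in all), with a median change of −0.13. At 24 h, 35 were called higher and none lower, against 7.33 and 8.14% of all genes (15.5% in all), with a median change of 0.11. At 48 h, 28 were called higher and 1 lower, against 19.1 and 19.5% of all genes (38.7% in all), with a median change of 0.07. The 24 h count was 16 without the second library at 0 h and 22 without the third at 24 h, 18 in a model of all 24 libraries and 56 without a filter on low counts. Over these times, 21 genes (25.9%) were called lower at 8 h and higher at 24 h, where 0.904% of all 15038 genes tested at each time were. Lower at 8 h and not higher later were 22 (27.2%, against 14.1% of all genes), higher at both 24 and 48 h were 17 (21%, against 5.72%), and 13 were called at no time (16%, against 47%). Between 0 and 24 h in these cells, mitochondrial transcripts went from 3.07 to 3.21% down to 2.63 to 2.89% of the counts and MALAT1 and NEAT1 from 0.568 to 0.618% down to 0.455 to 0.510%, and in CTRL cells the ranges were 3.32 to 3.42%, then 2.58 to 2.66%, and 0.429 to 0.458%, then 0.412 to 0.442%; their part in the result was not tested.

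The largest fall at 8 h was that of RPL13A, a protein of the large subunit that also takes part in an interferon-controlled complex that silences mRNAs. It went from 812, 784 and 850.4 CPM to 652, 589 and 658 CPM, a log2 change of −0.37 ± 0.04 (adjusted p = 2.48e-08), and stood at 903, 816 and 853 CPM at 24 h. The 8 h libraries were below all of those at 0 and 24 h. RPS28 followed with a change of −0.28 ± 0.03 (adjusted p = 1.93e-07), from 168, 168 and 170.0 CPM to 142, 139 and 138 CPM. RPS19, the gene most often mutated in Diamond-Blackfan anaemia, fell by 0.27. RPL12 was the exception, higher at 8 h by 0.11 ± 0.03 (adjusted p = 0.00383).

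In the CTRL cells 76 of the 81 changes at 8 h were also below 0, with a median of −0.10, and 42 had an unadjusted p under 0.05, but edgeR called none (1.7% of all genes were called, 0.793% lower and 0.905% higher). The first CTRL library at 8 h stood apart from the other 2 (share of 3.73% against 3.48 and 3.40%), and without it 18 genes were called lower. A model of all 24 libraries called 25 lower, and 5 were called without a filter on low counts. The 1.7% does not apply to these other fits, and their own share of all genes is not given here. RPL13A was at 744, 686 and 667 CPM at 8 h against 824, 822 and 817 CPM at 0 h in these cells (−0.21, adjusted p = 0.0324), and RPS28 and RPS19 had changes of −0.14 and −0.12, neither called. As the interaction at 8 h called no gene, the fall at 8 h was not shown to differ between the lines.

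At 24 h the CTRL cells had 2 genes called, RPS21 and RPL27, both lower (6.06% of all genes were called, 3.25% lower and 2.81% higher), and a median change of −0.04. The count was 4 with a block for the replicate number, 0 in a model of all 24 libraries and 4 without a filter on low counts. It was 5 without the first library at 0 h, 1 without the third at 24 h and 0 without any of the others. At 48 h 7 were called lower and 1 higher (14.7 and 15.2% of all genes, 30% in all), and the count ranged from 3, without the second or the third CTRL library at 0 h, to 16, without the first at 48 h. RPL7L1, a paralog of RPL7 that acts in ribosome assembly, fell most, from 274, 278 and 277 CPM to 204, 224 and 229 CPM (−0.34 ± 0.05, adjusted p = 9.53e-05). RPS12 (−0.23) and RPS21 (−0.19) also fell, and RPL22, an RNA-binding protein of the large subunit, rose by 0.20. The same 2 genes moved at 48 h in the inducible cells, where RPL22 was the largest increase (0.28) and RPL7L1 the only gene called lower (−0.21), beside increases of RPS27L (0.27), RPL39 (0.26), which narrows the exit tunnel, and RPL31 (0.25), which sits at its mouth.

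**Figure D3:**
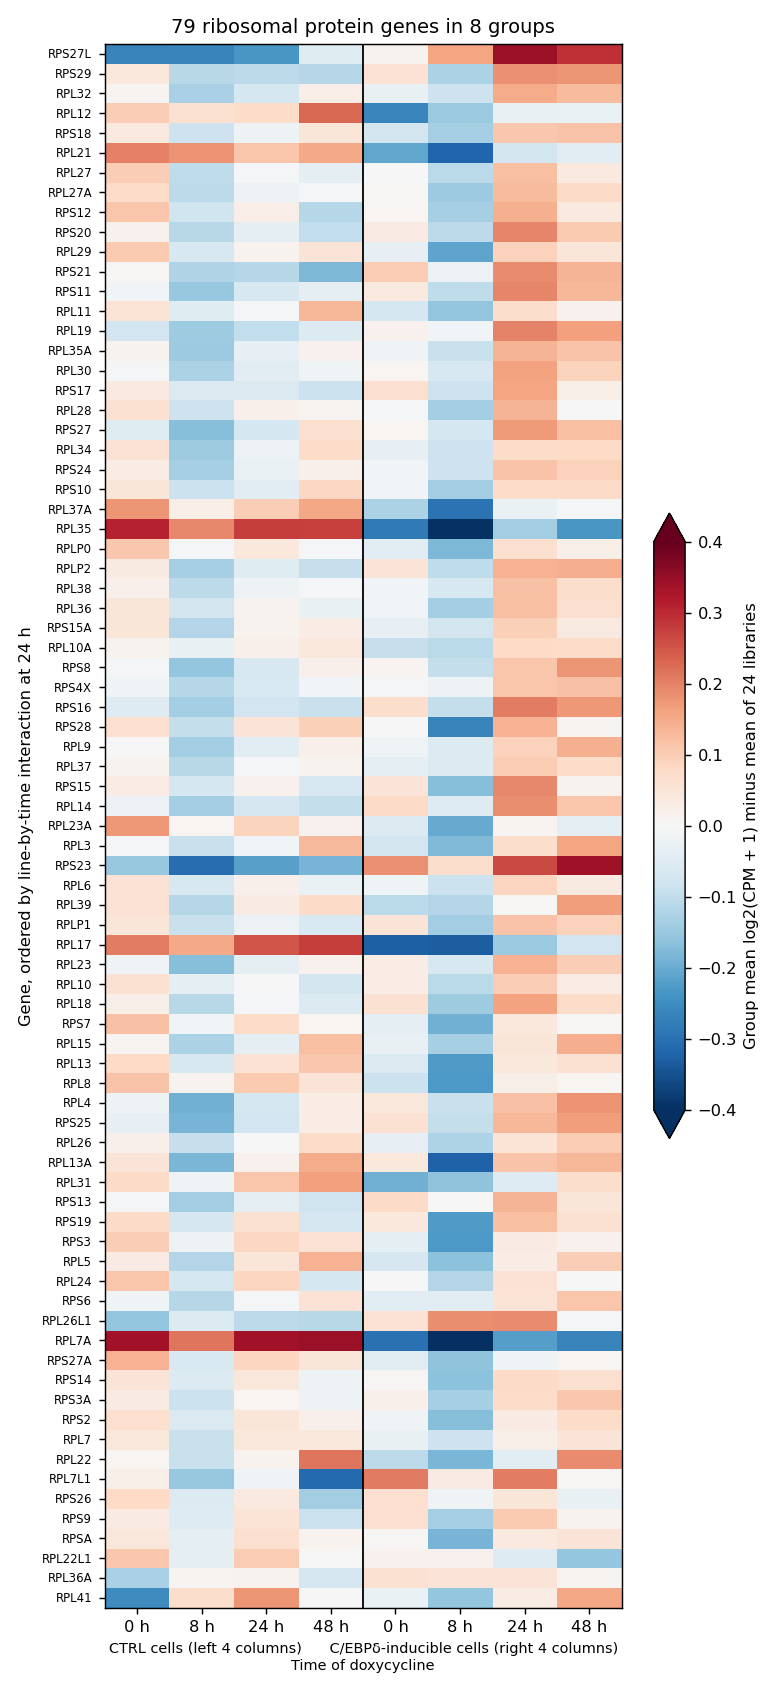
Group mean log2(CPM + 1) of 79 of the 81 tested genes (rows, ordered by the interaction at 24 h) minus its mean over the 24 libraries, in 4 columns for CTRL and 4 for C/EBPδ-inducible cells; the colour scale ends at 0.4 in each direction. The columns of 8 h are mostly blue in both lines and the inducible column of 24 h is mostly red, while RPL7A, RPL35, RPL17 and RPS23 keep 1 colour per line at all times.

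The lines themselves were compared at each time. Before doxycycline, 24 of the 81 genes were called lower and 7 higher in inducible than in CTRL cells, against 23.9 and 20% of all 15317 genes (43.9% in all), with a median of −0.05. At 8 h, 9 were lower and 2 higher (17.4 and 14.3% of all genes, 31.8% in all). At 24 h the split turned over, with 39 higher and 8 lower (21.5 and 25.3% of all genes, 46.9% in all) and a median of 0.09, and at 48 h 17 were higher and 5 lower (17.6 and 20.7%, 38.3% in all), with a median of 0.07. At 24 h, 18 of the 32 small subunit genes were higher and 1 lower, and 21 and 7 of the 49 tested large subunit genes. The libraries of the lines did not overlap for 48 genes in the higher and 10 in the lower direction, where 30.5 and 31.4% of all genes did not. The 8 h count was 18 without the first CTRL library of that time, 6 without the first or the second inducible one and 25 in a model of all 24 libraries, and the 48 h count was 14 without the third CTRL or the first or the third inducible library.

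Beyond these shifts, 7 genes were called with 1 direction of difference at each of the 4 times, with 5 lower and 2 higher in inducible cells, which is 6.17 and 2.47% of the 81 genes where 13 and 8.86% of all genes did. RPL7A, a large subunit protein whose gene hosts several snoRNAs, was at 786, 824 and 811 CPM in CTRL and at 520.2, 521 and 515 CPM in inducible cells at 0 h. At 24 h it was at 806, 813 and 803 CPM against 562, 539 and 545 CPM. The differences were −0.65 ± 0.02 at 0 h (adjusted p = 3.37e-14), −0.66 at 8 h, −0.56 at 24 h and −0.62 at 48 h, and no inducible library of any time reached a CTRL library.

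RPL35, at the mouth of the exit tunnel, was at 527, 553 and 548 CPM in CTRL and 361, 348 and 370.4 CPM in inducible cells at 0 h, with differences of −0.60, −0.59, −0.42 and −0.51 over time. RPL17 was at 20.2, 22 and 20.9 CPM against 14.9, 14.7 and 13.2 CPM, with differences of −0.57, −0.50, −0.43 and −0.37. For both genes all 12 inducible libraries were below all 12 CTRL libraries. RPL12 (−0.37, −0.21, −0.11 and −0.26) and RPL37A, a zinc finger protein of the large subunit (−0.31, −0.32, −0.13 and −0.16), were called lower at each time with a smaller gap at 24 h.

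RPS23, a protein of the decoding centre, was the gene higher in all 12 inducible libraries. It was at 943, 886 and 926 CPM in inducible and 719.5, 742 and 722 CPM in CTRL cells at 0 h, and at 1023, 1016 and 1032 CPM against 695, 718 and 721 CPM at 48 h. The difference was 0.33 ± 0.03, 0.37 ± 0.04, 0.47 ± 0.02 and 0.52 ± 0.03 at the 4 times (adjusted p = 3.77e-09 at 0 h and 9.2e-15 at 24 h). RPS27L, which p53 is known to induce, was at 23, 23.2 and 25.3 CPM against 21.2, 17.5 and 19.7 CPM at 0 h and at 30, 31.1 and 29.6 CPM against 20.4, 20.3 and 19 CPM at 24 h. Its differences were 0.28, 0.44, 0.60 and 0.35, and within the inducible cells it rose by 0.35 ± 0.06 at 24 h (adjusted p = 0.000109), the largest change of any of the genes there.

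**Figure D4:**
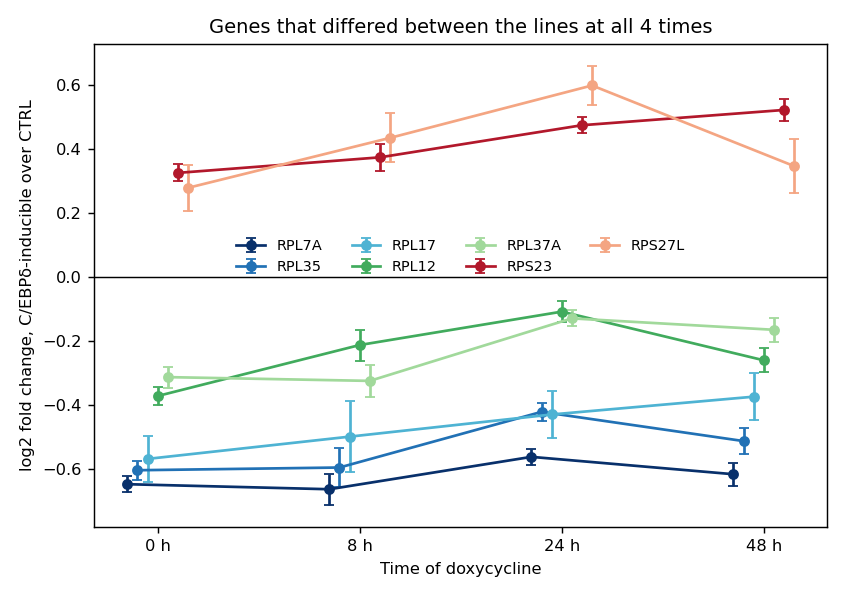
Log2 fold change of C/EBPδ-inducible over CTRL cells (vertical axis, bars for the SE) at 0, 8, 24 and 48 h for the 7 genes called in the same direction at all 4 times. RPL7A stays between −0.66 and −0.56 and RPS23 between 0.33 and 0.52.

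RPL7A, RPL35 and RPL12 lie on the long arm of chromosome 9, so the genes around each ribosomal protein gene were examined, a comparison chosen after seeing the data. Between 120 and 138 Mb of chromosome 9, 199 other protein-coding genes were tested at 0 h, with a median difference of −0.50, 184 of them below 0 and 167 called lower in inducible cells. Around RPL17 (chromosome 18, 44 to 54 Mb) 21 of 23 neighbours were below 0 with a median of −0.52. Around RPL37A (chromosome 2, 212 to 222 Mb) it was 32 of 44 with a median of −0.24, and around RPL21 (chromosome 13, 22 to 32 Mb), itself at −0.42 at 0 h, 26 of 27 with a median of −0.32. The genes around RPS23 (chromosome 5, 77 to 87 Mb) had a median of −0.06 at 0 h, with 16 of 28 below 0, 9 called lower and 4 higher, and one of 0.10 at 8 h, with 10 of 28 below 0, 3 called lower and 5 higher. At 24 and 48 h the median was −0.10 and −0.06.

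Across the 81 genes, the difference at 0 h and the median difference of the other protein-coding genes within 5 Mb had a Pearson correlation of 0.72 and a Spearman correlation of 0.41 (0.60 and 0.37 within 2 Mb, for 80 genes), and for the interaction at 24 h the values were 0.30 and 0.10 (0.29 and 0.20 within 2 Mb). Both are descriptions across genes that share the same libraries and, where they lie close, the same neighbours. What sets the levels of whole stretches apart between the lines was not tested.

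**Figure D5:**
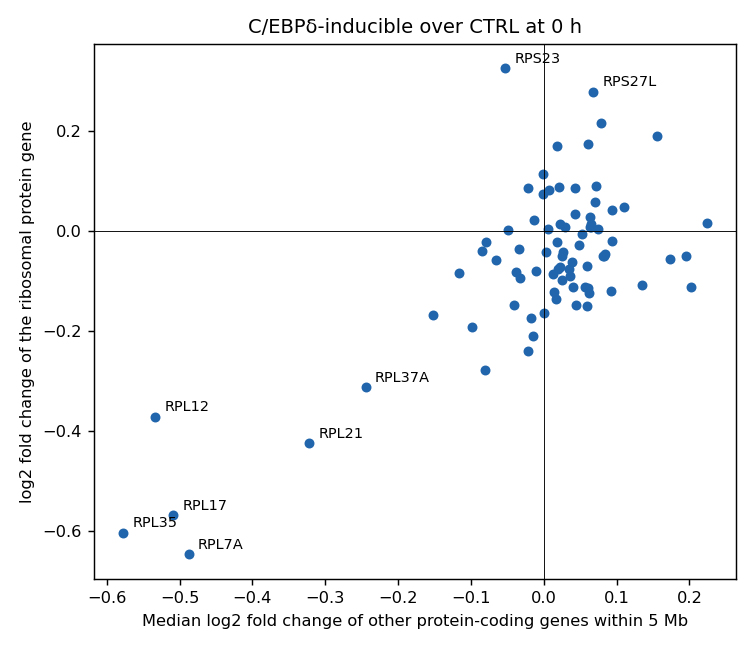
Log2 fold change of each ribosomal protein gene (vertical axis) against the median of the other tested protein-coding genes within 5 Mb (horizontal axis), both for inducible over CTRL cells at 0 h. RPL7A, RPL35, RPL17, RPL12, RPL21 and RPL37A lie at the lower left with their neighbours, and RPS23 lies high beside neighbours with a median near 0.

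RPLP0 was examined further because it is a reference gene. It was lower in inducible cells at 0 h (656, 641 and 655 CPM against 709, 726 and 738 CPM, −0.16 ± 0.02, adjusted p = 1.29e-05). At 24 h the lines were at 698, 703 and 705 CPM and 688, 690.5 and 697 CPM, a difference of 0.02 ± 0.03 that was not called. Within inducible cells it fell at 8 h (−0.14, called), to 608, 574 and 597 CPM, and was higher at 24 h by 0.11 (called). RPLP1 and RPLP2 were higher in inducible cells at 24 h (0.13 and 0.19) and at 48 h (0.15 and 0.23), and fell there at 8 h (−0.20 and −0.16).

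Values of other genes with functions beyond the ribosome follow. RPS6, the target of the S6 kinases downstream of mTORC1, was called in no comparison of the lines and rose in inducible cells at 24 h (0.10) and 48 h (0.15). RPSA, which is also known as a laminin receptor, fell in inducible cells at 8 h (−0.20). RPS27A, which is made as a fusion with ubiquitin, was lower in inducible cells at 0 h (−0.19) and 24 h (−0.11). RPL5 fell at 8 h (−0.10) and rose at 24 h (0.10) and 48 h (0.16) in the inducible cells, and was lower in these than in CTRL cells at 0 h (−0.11). RPS4X was higher in inducible than in CTRL cells at 24 h (0.17) and 48 h (0.13).

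Paralogs, which can stand in for or act beside their parent protein, are given beside the parents; whether they differed from them was not tested. RPS27 was higher in inducible cells at 24 h by 0.24, where RPS27L was higher by 0.60. RPL7L1 was higher at 0 h (0.17), 24 h (0.22) and 48 h (0.31), and its parent RPL7 was called in no comparison. RPL26L1 was higher at 0 h (0.22) and 24 h (0.30) and RPL26 was called in neither. RPL22 had called changes over time, whereas RPL22L1, at 22.4 to 31.4 CPM in all libraries, was called in no comparison. Of the parents of the untested paralogs, RPL3 went through −0.11, 0.15 and 0.22 at 8, 24 and 48 h in the inducible cells, all called.

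Other genes of the translation apparatus were read from lists. Between the lines at 24 h, 21.5% of all genes were higher and 25.3% lower (46.9% called), and in inducible cells at 8 h 15.8% were lower than at 0 h, against which the counts below are to be read. Of 4 ribosomal protein genes that the name rule misses, 3 fell in inducible cells at 8 h, among them FAU (−0.16) and RACK1 (−0.15). At 24 h 3 were higher than in CTRL cells, FAU (0.19) and RACK1 (0.14) among them, and RPL36AL was lower (−0.13). None was called in the interaction at 24 h. Of 20 tested translation factors and other TOP mRNAs (EEF1G did not pass the filter), 11 were higher and 2 lower in inducible cells at 24 h, 9 fell at 8 h, and 2 were called in the interaction at 24 h, the TOP mRNA TPT1 (0.33) and the elongation factor gene EEF1A1 (0.14). In that interaction 5.84% of all genes were called, 2.86% higher.

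Ribosome assembly factors were read the same way. Of 50, 34 were higher and 5 lower in inducible cells already at 0 h (median 0.18, against 20 and 23.9% of all genes), and 34 and 1 at 24 h (median 0.20), among them RRP9, FBL and NHP2 (0.54 each), parts of the snoRNA particles, and the subunit joining inhibitor EIF6 (−0.49). None was called in the interaction at 24 h, with 15 at an unadjusted p under 0.05 and a median of 0.05. At 48 h, 36 of them were lower than at 0 h in inducible cells and 1 higher (median −0.18, against 19.5 and 19.1% of all genes), with GRWD1 (−0.47) and RRP9 (−0.44) among those that fell. In CTRL cells 36 fell too and 1 rose at 48 h (median −0.34, against 14.7 and 15.2% of all genes). The interaction at 48 h called 11 of the assembly factors, all with a difference of the changes above 0 (2.83% of all genes), with a median of 0.15. This compares changes, whose medians were below 0 in both lines, and not levels. Whether their course differed from that of the ribosomal protein genes was not tested.

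Of 16 tested genes of RNA polymerase I and its factors, which transcribe ribosomal RNA (3 of 20 symbols were not matched and POLR2F did not pass the filter), 6 were higher and 3 lower in inducible cells at 24 h, where 21.5 and 25.3% of all genes were (46.9% in all). TTF1 was at −0.45 and TAF1A at 0.43, and none of the 16 was called in the interaction. Of 23 regulators of mTORC1 and of TOP mRNAs, 10 were higher and 3 lower at 24 h, against 21.5 and 25.3% of all genes (46.9% in all). The higher ones were led by the mTORC1 inhibitor DDIT4 (1.37), the MYC antagonist MXI1 (1.36), MYC itself (0.70) and EIF4EBP1 (0.60), a repressor of cap-dependent translation. Their differences between the lines at 0 h are not given here. At 8 h in the inducible cells SESN2 (1.37) and DDIT4 (1.33) were the largest of 6 increases, where 14.6% of all genes were called higher. In the interaction at 24 h, MYC (0.40) and EIF4EBP2 (0.23) were called, where 5.84% of all genes were (2.86% higher).

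Several properties of the genes were set beside the results. Over the 81 genes, the difference between the lines at 24 h had a Spearman correlation of −0.45 with the percent of counts on pseudogenes. For the difference at 0, 8 and 48 h it was −0.37, −0.38 and −0.44. The interaction at 24 h had one of −0.25. The length of the merged exons had a correlation of −0.03 with the interaction. Histone genes, which are read only in rRNA-depleted RNA because most lack a poly(A) tail, took 0.791 to 0.912% of the counts in inducible and 0.609 to 0.652% in CTRL cells at 24 h, and 0.781 to 0.859% and 0.610 to 0.641% already at 0 h. The part of these in the results was not tested.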

How the data were processed

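RNA depleted of ribosomal RNA was sequenced from 24 libraries. The authors trimmed the reads (Trimmomatic 0.36, per the submitters' processing notes), used HISAT2 for alignment to GRCh38 and HTSeq for counting, and deposited the raw counts per gene. Whether counting used strand, and how multi-mapped reads were treated, is not given in the sources used here. Library totals were 12731237 to 22598595 counts, which limits the precision of low genes.

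From the counts, TMM-scaled CPM were computed, and groups were compared by edgeR 4.0.16 with its quasi-likelihood F test (R 4.3.3, limma 3.58.1) fitted to the groups of each contrast only (filterByExpr), with a two-sided Benjamini-Hochberg adjusted p over all genes and a threshold of 0.01. The SE is the log2 fold change divided by the square root of the F value. Gene names and coordinates come from GENCODE release 44 (56558 of 60675 identifiers matched), and promoter windows from RefSeq (GRCh38.p14). The contrasts were the lines at each time, each time against 0 h within a line, and their interaction.

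The members and gene lists were chosen with earlier results of these data known. Named are paralog pairs, RPLP0, RPLP1, RPLP2, RPSA, RPS6, RPL5, RPL11, RPS4X and RPS27A, up to 8 called genes with the largest change per direction (4 in smaller contrasts), the 3 highest and the 3 lowest per length, up to 5 per direction called at all 4 times, up to 4 of each other list, and CEBPD. A few genes that these rules pick are not reported here. RPL21, RPL36A and RPL41, the neighbouring stretches and the transcript lengths were chosen after seeing the data.

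Alternatives were RLE factors, DESeq2 1.42.0, no filter, a minimum of 10 counts, all 24 libraries in 1 model, the replicate number as a block, TMM factors without the members, removal of a trend with gene length, other denominators of the share, and leaving out each library. Same-numbered libraries deviated together in every pair for CTRL cells at 24 h against 0 h only (r = 0.183, 0.186 and 0.272), which was taken as a pairing there. The fits behind the results leave this pairing out, and the fit with the block is given as an alternative. The labels number the replicates without saying what a number marks.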

Additional observations from a re-analysis of the deposited data

Results flagged for a closer look

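The following results stand out because the change over time differed between the lines by a test of the difference itself, the interaction of line and time (edgeR, adjusted p under 0.01). At 24 h, 28 of the 81 tested ribosomal protein genes met this, all with the larger change in C/EBPδ-inducible cells, where 5.84% of all genes were called in either direction. The differences of the log2 changes were 0.27 for RPL32 and RPL12, 0.25 for RPS18, 0.24 for RPL27, 0.23 for RPL27A, RPS12 and RPS20, 0.18 for RPLP0, 0.17 for RPS4X and 0.16 for RPL3. At 48 h, 1 gene met it, RPS12 with 0.24, where it changed by −0.23 in CTRL cells (called) and by 0.02 in inducible cells (not called). Over the other settings tried, RPL32, RPL12, RPS18, RPL27, RPL27A and RPS12 were called at 24 h in each, whereas RPL3 and RPS4X were lost in 10 and 11 of 20.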

How the results depend on the processing

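Signs were compared over the settings for called values of the ribosomal protein genes named by the rules above, except those named for their level only. None of these changed sign, and other called genes were not compared in this way. The shares of all genes called under these settings are not given here. In a model of all 24 libraries, 25 members were called between the lines at 8 h, 25 in CTRL cells at 8 h, 0 at 24 h and 14 at 48 h, 30 and 18 in inducible cells at 8 and 24 h, and 7 and 4 in the interaction at 24 and 48 h. Without a filter on low counts, 5 and 4 were called in CTRL cells at 8 and 24 h, 56 in inducible cells at 24 h and 6 in the interaction at 48 h, and the median between the lines at 24 h was 0.074. With a minimum of 10 counts, 1 was called in CTRL cells at 24 h and 5 in the interaction at 48 h, whose median was 0.12. With a trend by gene length removed, the medians were −0.025 between the lines at 0 h, 0.12 at 24 h and 0.12 in the interaction at 48 h, where 2 were called. RLE factors gave 3 and DESeq2 4 in that interaction. With the replicate block, 4 were called in CTRL cells at 24 h and 3 at 48 h, and 24 in the interaction at 24 h, where DESeq2 gave 36; the block moved no other count of ribosomal protein genes called by over 1.5 times.

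Without mitochondrial, small and ribosomal RNA in the denominator, the summed share was 3.81, 3.77 and 3.96% in CTRL cells at 0, 24 and 48 h and 3.77, 3.52, 4.12 and 4.14% in inducible cells at 0, 8, 24 and 48 h. With the counts of pseudogenes added it was 3.85, 3.83 and 3.99%, and 3.81, 3.55, 4.18 and 4.19%.

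With 1 library left out at a time, the count ranged from 6 to 18 between the lines at 8 h, 14 to 27 at 48 h (median 0.059 to 0.080), 0 to 18 in CTRL cells at 8 h (median −0.14 to −0.095), 0 to 5 at 24 h, 3 to 16 at 48 h (median −0.067 to −0.028), 16 to 38 in inducible cells at 24 h, 15 to 34 in the interaction at 24 h (median 0.13 to 0.17) and 1 to 6 at 48 h. The cause of these shifts was not tested. Fewer than 10 counts leave RPL10L, RPL39L and RPL3L without a value, and wells of 1 culture cannot show the spread between cultures or clones.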
